A study of Mus musculus with 12 samples.

Results

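The nuclear genes of the mitochondrial respiratory chain and the ATP synthase were followed with age in the aorta (descending part) of male C57BL/6 mice. Members were all genes on the array whose name starts with Nduf, Uqcr, Sdh followed by a letter from a to d, Cox4 to Cox8 or Atp5, without Cox7a1 and Cox8b. The rule found 90 of the 28112 named genes on the array. Of these, 88 were detected (well above background in 6 or more of the 12 arrays) and were tested, among 16853 genes tested in all. The study compared 6 mice of 6 months with 6 mice of 20 months, with no other treatment named in the labels, and each mouse gave 1 array. The mice came from 1 supplier and had free access to water and standard chow. The vessel was perfused with cold buffer through the left ventricle, freed of surrounding fat and connective tissue, and frozen whole. RNA of all cells left in the sample was therefore measured together. Brown adipocyte and heart muscle markers were also detected in this RNA, as given below.

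The respiratory chain passes electrons from NADH and succinate to oxygen and pumps protons across the inner mitochondrial membrane, and the ATP synthase makes ATP as the protons flow back. Complex I (Nduf genes) oxidises NADH, complex II (Sdh genes) succinate and complex III (Uqcr genes) ubiquinol, complex IV (Cox genes) reduces oxygen, and complex V (Atp5 genes) is the ATP synthase. Smooth muscle of the aortic wall draws much of its ATP from glycolysis, whereas heart muscle and the brown fat that lies along the thoracic aorta of mice are rich in mitochondria.

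By their roles, 74 members encode subunits found in most tissues, with 36 in complex I, 4 in complex II, 8 in complex III, 11 in complex IV and 15 in complex V. A further 5 are tissue isoforms of complex IV subunits (Cox4i2, Cox6a2, Cox6b2, Cox7b2 and Cox8c), 8 are assembly factors, and 3 carry a family name without being subunits here (Cox4nb, Atp5s and Ndufa4l2). The array's older names Atp5f1, Atp5s, Atp5sl and Cox4nb are today Atp5pb, Dmac2l, Dmac2 and Emc8, and the last belongs to a membrane protein complex of the endoplasmic reticulum. Ndufa4, named after complex I, was counted with complex IV, where its protein is now placed.

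Promoter stretches are shown for 4 members because they belong to families of isoform genes that did not run alike on these arrays. Atp5g1, Atp5g2 and Atp5g3 encode the same mature c subunit of the ATP synthase ring, and Cox6a1 is the widely used partner of the muscle isoform Cox6a2. The stretches are the 250 bases before the gene's start from RefSeq, build GRCm38.p6, 5′ to 3′ along the gene's minus strand, at chr11:96075632-96075881 (Atp5g1), chr15:102671048-102671297 (Atp5g2), chr2:73911327-73911576 (Atp5g3) and chr5:115348959-115349208 (Cox6a1). Capitals mark matches to the motifs named after them.
Atp5g1: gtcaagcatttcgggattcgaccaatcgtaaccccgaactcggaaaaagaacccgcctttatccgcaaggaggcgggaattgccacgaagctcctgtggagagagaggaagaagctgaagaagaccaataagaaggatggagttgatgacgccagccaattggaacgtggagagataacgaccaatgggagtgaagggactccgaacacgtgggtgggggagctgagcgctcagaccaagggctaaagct
Atp5g2: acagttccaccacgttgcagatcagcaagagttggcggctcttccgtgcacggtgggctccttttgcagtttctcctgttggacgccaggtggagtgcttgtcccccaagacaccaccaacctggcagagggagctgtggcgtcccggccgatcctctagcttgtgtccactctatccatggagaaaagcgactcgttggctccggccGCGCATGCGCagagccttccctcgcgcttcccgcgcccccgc
Atp5g3: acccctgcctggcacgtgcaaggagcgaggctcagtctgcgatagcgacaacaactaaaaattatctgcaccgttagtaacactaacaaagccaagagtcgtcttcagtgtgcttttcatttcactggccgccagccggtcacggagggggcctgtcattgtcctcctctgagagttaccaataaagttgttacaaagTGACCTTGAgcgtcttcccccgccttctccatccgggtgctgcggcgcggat
Cox6a1: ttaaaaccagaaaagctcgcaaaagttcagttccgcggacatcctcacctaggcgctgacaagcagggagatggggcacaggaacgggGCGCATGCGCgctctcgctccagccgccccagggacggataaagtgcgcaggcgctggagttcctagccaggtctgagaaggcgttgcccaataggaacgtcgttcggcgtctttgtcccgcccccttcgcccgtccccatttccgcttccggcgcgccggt
The 5 motifs searched on both strands were GCGCATGCG (NRF1), CCGGAAGT (GABPA and other ETS factors), TCAAGGTCA (ERR receptors), AAGATGGCG (YY1) and GGGGCGGGG (SP factors), in windows from 250 bases before to 50 after a start. In Atp5g2 and Cox6a1 the capitals are the NRF1 motif, matched on both strands with 1 base of offset, at 42 and 162 bases before the start. In Atp5g3 they are the ERR motif on the other strand, 52 bases before the start, and Atp5g1 holds none of the 5 motifs in this stretch. The NRF1 motif was in the windows of 9 of the 74 members matched to the promoter table (12.2%) and of 527 of its 27025 genes (1.95%). The YY1 motif was in 8 members (10.8%) against 1.64% of genes, the ERR motif in 2 (2.7%) against 0.466%, the GABPA motif in 5 (6.76%) against 4.31%, and the SP motif in 13 (17.6%) against 12.9%. The window of Atp5g2 also held the SP motif, not wholly within the stretch shown. The 34 tested members with any of the 5 motifs had a median log2 change from 6 to 20 months of -0.22, with 32 negative. The 39 with a window and no match had -0.25, with 38 negative, and a link between motif and change was not tested. These are matches of letters and not measured binding.

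All values below are log2 signals relative to the 75th percentile of the same array, a change is the value at 20 months minus that at 6 months with the standard error of the fit, and signals of different probes are not compared. Each of 3 slides carried 2 arrays per age, and 47.5% to 55.8% of the probes were detected on an array. All 20 months arrays lay in column 3 of their slide and none of the 6 months arrays did, so that age and column cannot be told apart. All 7 smooth muscle markers and all 6 endothelial markers passed the same filter of 6 arrays, and so did all 13 brown adipocyte markers, all 9 white adipocyte markers and all 12 heart muscle markers, although 5 of the last (Myl7, Tnni3, Mybpc3, Myl2 and Sln) were not well above background on every array, and Mybpc3 was so on 4 arrays at 6 months and 2 at 20 months. The 20 months replicate 1 stood apart: its heart muscle markers averaged 3.16 above their 12-array mean, against 2.14 in 6 months replicate 1 and at most 0.56 in the other arrays. The medians of the complexes, and the changes of many named members, are also given without it.

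No member passed an adjusted p (limma, Benjamini-Hochberg over all 16853 genes) under 0.05 in either direction. Of all genes, 44 were called higher (0.261%) and 9 lower (0.0534%) at 20 months. No member had 6 values at 20 months that all lay below or all lay above the 6 at 6 months, while 33 genes (0.196%) were separated downwards and 104 (0.617%) upwards. The changes of the members nevertheless lay mostly on 1 side. Of the 88 tested, 82 were negative and 6 positive, and their median was -0.23. Over all genes tested the median was -0.02, and 56.1% of changes were negative. Most members moved together from array to array, as given below, so they do not count separately in these numbers or the next. At an unadjusted p under 0.05, 14 members (15.9%) were lower and 0 higher, beside 577 (3.42%) and 770 (4.57%) of all genes. That count moved with the processing: it was 1 with median scaling (1.41% of all genes), 6 with quantile normalization (3.13%), 8 with the authors' value table (3.14%), 23 with normexp background correction (3.17%) and 50 with array weights (7.63%). The smallest adjusted p of a member was 0.487. Of the 88 changes, 23 were within 1 standard error of 0, 46 between 1 and 2, and 19 beyond 2.

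Among the 74 subunit genes, 73 changes were negative, with a median of -0.24 and a range from -0.63 to 0.08. In a whole vessel, fewer cells of a mitochondria-rich type and less of these RNAs per cell cannot be told apart. The medians of the complexes were -0.23 for complex I, -0.18 for complex II, -0.30 for complex III, -0.25 for complex IV and -0.19 for complex V. Without 20 months replicate 1 they were -0.33, -0.28, -0.41, -0.34 and -0.27. Over all arrays left out in turn, complex II, with 4 genes, ran from -0.30 (without 6 months replicate 5) to -0.09 (without 6 months replicate 6), and the latter gave -0.17, -0.22, -0.18 and -0.15 for complexes I, III, IV and V. The 8 assembly factors had a median of -0.14, all negative. The 3 tested tissue isoforms had a median of 0.02, and the 3 other genes were all positive, between 0.02 and 0.05. Whether the complexes differ was not tested.

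**Figure D1:**
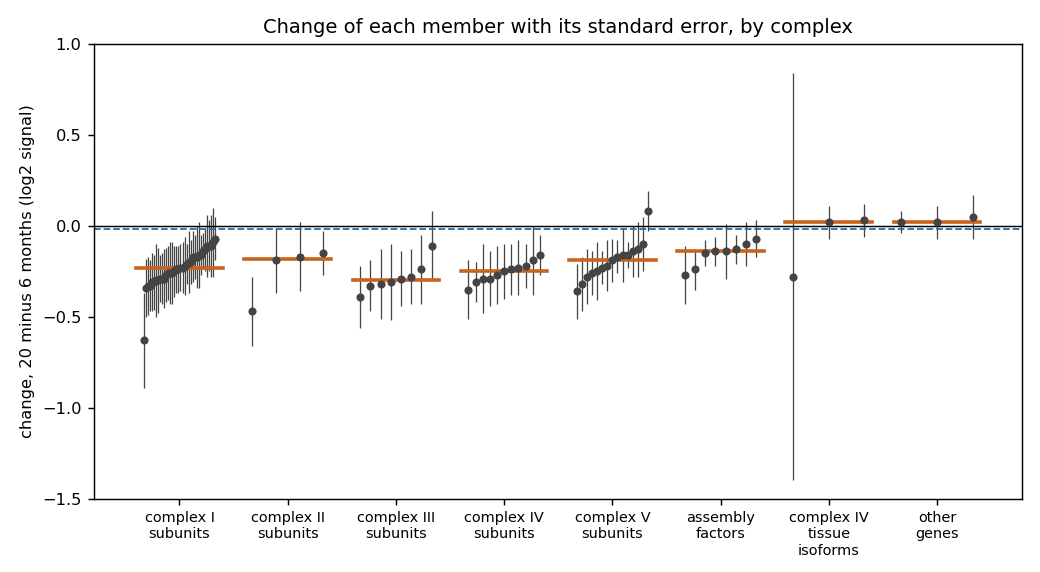
Change of each tested member from 6 to 20 months (log2 signal, vertical axis) with its standard error, grouped by complex or role, with orange bars for the medians and a dashed line for the median of all genes (-0.02). Of the 74 subunit genes only Atp5g1 (0.08, complex V) lies above 0, and Cox6a2 among the tissue isoforms has the widest error (1.12).

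In complex I, all 36 subunit changes were negative, from -0.63 to -0.07, and 4 had an unadjusted p under 0.05. The 7 core subunits, which carry the electron transfer centres, had a median of -0.17, and the 29 supernumerary subunits one of -0.24. Ndufab1, the mitochondrial acyl carrier protein that is also a complex I subunit (probe at chr7:129231667-129231726, mm9), showed the largest change. Its signal ran from 1.36 through a median of 1.74 to 2.27 at 6 months, and from 0.72 through 0.98 to 2.36 at 20 months. The highest value of all 12 was that of 20 months replicate 1, and the other 5 at that age, at most 1.25, lay below every 6 months value. The change was -0.63 ± 0.26, or 1.55-fold lower, with an adjusted p (limma) of 0.564. Without 20 months replicate 1 it was -0.87, with an adjusted p (limma) of 0.0645, the smallest of any member under any setting tried.

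Ndufc2, a small subunit of the membrane arm, had signals of 5.80 to 6.41 at 6 months (median 6.09) and 5.56 to 6.30 at 20 months (median 5.73), which overlapped. Its change was -0.33 ± 0.14 (limma, adjusted p = 0.564). Ndufb8, a membrane arm subunit often used to judge whether complex I is assembled, ranged from 7.33 to 8.23 at 6 months and from 7.29 to 8.13 at 20 months. Its change of -0.26 ± 0.17 was within 2 standard errors of 0, and without 20 months replicate 1 it was -0.38. The core subunits Ndufs1, which holds iron-sulfur clusters, and Ndufv1, which binds NADH, had changes of -0.17 ± 0.17 and -0.11 ± 0.17 (-0.24 and -0.18 without 20 months replicate 1). For these the ages overlapped almost fully, with 5.32 to 6.42 and 5.42 to 6.06 for Ndufs1, and 6.71 to 7.75 and 6.75 to 7.47 for Ndufv1.

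In complex II, the membrane anchor Sdhd had a change of -0.47 ± 0.19, 1.38-fold lower (limma, adjusted p = 0.562; probe at chr9:50404630-50404689, mm9). Its values were 6.06 to 7.03 at 6 months (median 6.48) and 5.80 to 6.83 at 20 months (median 6.00). The value of 6.83 was 20 months replicate 1, and the next highest at that age was 6.08, close to the lowest 6 months value. Without that array the change was -0.62 (limma, adjusted p = 0.156). The other anchor Sdhc had a change of -0.15 ± 0.12, the flavoprotein Sdha one of -0.17 ± 0.19, and the iron-sulfur subunit Sdhb one of -0.19 ± 0.18. These 3 were each less than 2 standard errors from 0, and without 20 months replicate 1 they were -0.23, -0.26 and -0.30.

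All 8 complex III genes had negative changes, from -0.39 to -0.11. The small subunit Uqcr10 had the most negative, -0.39 ± 0.17 (limma, adjusted p = 0.588), with 6.67 to 7.37 at 6 months and 6.42 to 7.33 at 20 months. Uqcr11, another small subunit, had values of 7.29 to 7.91 (median 7.74) and 7.15 to 7.82 (median 7.26), and a change of -0.33 ± 0.14 (limma, adjusted p = 0.564). Apart from 20 months replicate 1, the Uqcr11 values at 20 months were at most 7.30, below all but 1 of the 6 months values. The Rieske iron-sulfur protein Uqcrfs1 had a change of -0.31 ± 0.21, and the core protein Uqcrc1, which holds no redox centre, one of -0.11 ± 0.19. Without 20 months replicate 1 the changes were -0.51 for Uqcr10, -0.43 for Uqcr11, -0.44 for Uqcrfs1 and -0.23 for Uqcrc1, and none was called.

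The 11 complex IV subunits lay between -0.35 and -0.16. Cox6c, a small subunit spanning the membrane (probe at chr15:35861751-35861810, mm9), had the smallest p of all members, with an adjusted p (limma) of 0.487. It ran from 7.29 through a median of 7.55 to 7.78 at 6 months and from 7.11 through 7.18 to 7.66 at 20 months. Its change was -0.31 ± 0.11, 1.24-fold lower, and 5 of the 6 values at 20 months lay below all 6 values at 6 months. Without the sixth, replicate 1, the change was -0.39 (limma, adjusted p = 0.141). Ndufa4 ranged from 6.29 to 6.97 at 6 months and from 5.94 to 6.95 at 20 months, with a change of -0.35 ± 0.16 (limma, adjusted p = 0.605), or -0.48 without 20 months replicate 1 (limma, adjusted p = 0.142). Cox4i1, the common form of the subunit through which ATP inhibits the enzyme, had a change of -0.16 ± 0.11. Changes of the other subunits named were -0.29 ± 0.19 for Cox5a, -0.25 ± 0.15 for Cox5b, -0.22 ± 0.12 for Cox6a1, -0.23 ± 0.15 for Cox7a2 and -0.24 ± 0.14 for Cox8a. Without 20 months replicate 1 these were -0.43, -0.34, -0.29, -0.34 and -0.33, in the same order.

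The tissue isoforms of complex IV ran apart from these. Cox6a2, the form of heart and skeletal muscle (probe at chr7:135349160-135349219, mm9), ranged from -2.54 to 2.72 at 6 months and from -2.58 to 4.19 at 20 months. The highest values were those of 20 months replicate 1 (4.19) and 6 months replicate 1 (2.72), the arrays with the highest heart muscle markers, and across the 12 arrays Cox6a2 and the heart marker mean correlated with r = 0.996. Its change was -0.28 ± 1.12, and within the slides it was 3.70, -1.18 and -3.37, so that it has no settled sign; without 20 months replicate 1 it was -1.22 (limma, adjusted p = 0.567). Cox4i2, the form of lung and oxygen-sensing tissue, had a change of 0.02 ± 0.09 and Cox6b2, known from testis, one of 0.03 ± 0.09, and both were -0.01 without 20 months replicate 1. Cox7b2 and Cox8c, also known from testis, were well above background on 0 of 12 arrays.

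In the ATP synthase, 14 of 15 changes were negative and 5 had an unadjusted p under 0.05. The 5 genes of the catalytic head and central stalk had a median of -0.16, and the 10 of the membrane part and outer stalk one of -0.21. Atp5e, a small subunit of the central stalk, had values of 7.41 to 7.95 at 6 months (median 7.80) and 7.13 to 8.01 at 20 months (median 7.31). All 20 months arrays but replicate 1 (8.01) lay below every 6 months array. Its change was -0.36 ± 0.15, 1.29-fold lower (limma, adjusted p = 0.542), and without 20 months replicate 1 it was -0.49 (limma, adjusted p = 0.0866). Atp5a1 and Atp5b, which form the head where ATP is made, had changes of -0.16 ± 0.15 and -0.14 ± 0.14 (-0.23 and -0.21 without 20 months replicate 1). Atp5j, of the outer stalk, ranged from 5.17 to 5.43 at 6 months and from 5.10 to 5.26 at 20 months, with a change of -0.16 ± 0.07 (limma, adjusted p = 0.584).

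The 3 c subunit genes, whose promoters are shown above, differed in their values. Atp5g2 ran from 7.02 to 7.45 at 6 months and from 6.93 to 7.31 at 20 months, and its change was -0.23 ± 0.09 (limma, adjusted p = 0.54). Atp5g3 ran from 6.50 to 6.81 and from 6.31 to 6.80, with a change of -0.17 ± 0.09 (limma, adjusted p = 0.68). Atp5g1 ran from 4.68 to 5.30 and from 4.98 to 5.20, and its change of 0.08 ± 0.11 was the only positive one among the 74 subunit genes (limma, adjusted p = 0.871). Its lowest values, 4.68 and 4.75, were those of 6 months replicates 3 and 6, the arrays of that age where the other subunits were highest. In 20 months replicate 1, where the other subunits were also high, Atp5g1 was at 5.20, the highest of its age. Across the 12 arrays Atp5g1 correlated with the mean of the other subunits with r = -0.403, against 0.93 for Atp5g2 and 0.869 for Atp5g3. Whether the change of Atp5g1 differs from those of the other c subunit genes was not tested. Genes of the c subunit are known to have processed copies elsewhere in the genome, which array probes may not tell apart.

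**Figure D2:**
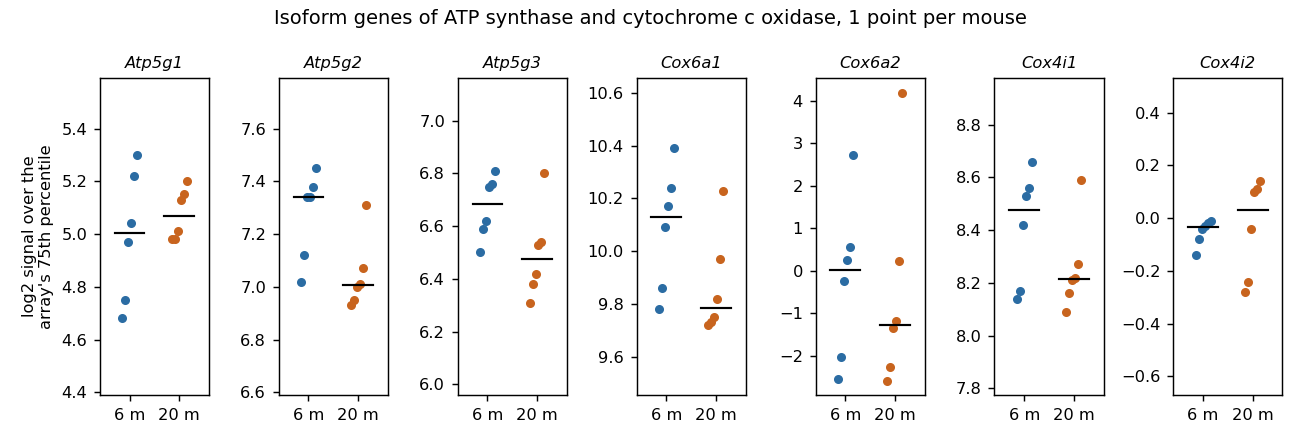
Signal of 7 isoform genes in each mouse (log2 over the array's 75th percentile, vertical axes that differ in range) at 6 and 20 months, with bars for the medians. Atp5g1 at 6 months reaches both higher (5.30) and lower (4.68) than at 20 months, whereas 5 of the 6 Atp5g2 values at 20 months lie at or below 7.07, and Cox6a2 spans -2.58 to 4.19.

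All 8 assembly factors had negative changes. The 3 with the smallest p were Atp5sl, Cox7a2l and Ndufaf3. Atp5sl, which takes part in building complex I, had a change of -0.24 ± 0.11 (limma, adjusted p = 0.631). Ndufaf3, which acts early in complex I assembly, had -0.14 ± 0.08 (limma, adjusted p = 0.697). Cox7a2l, described as a factor for supercomplexes of complexes III and IV, had -0.15 ± 0.07 (limma, adjusted p = 0.635). Whether its protein has that role in mice of this strain was not examined. Cox7a2l ranged from 6.50 to 6.84 at 6 months and from 6.46 to 6.64 at 20 months. Its r with the subunit mean, 0.614 over 12 arrays, was below that of all subunit genes but Atp5g1. Ndufa4l2, a relative of Ndufa4 known as a target of the hypoxia response, had a change of 0.02 ± 0.09, Atp5s one of 0.05 ± 0.12 and Cox4nb one of 0.02 ± 0.06.

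Where a gene had several probes, they pointed the same way. This held for all 24 members with more than 1 tested probe, and 113 of the 119 member probes tested on their own had negative changes, with 0 called.

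The subunit genes moved together from array to array. Over the 2701 pairs of subunit genes the median r across the 12 arrays was 0.929, and 1791 pairs were above 0.9. These arrays share their scaling and the mixture of cells in each vessel, so the correlations are descriptions. With each gene centred on its 12-array mean, the mean of the 74 subunit genes was 0.46 in 6 months replicate 6, 0.34 in replicate 3, 0.18 in replicate 4, 0.06 in replicate 1, -0.08 in replicate 2 and -0.26 in replicate 5. At 20 months it was 0.39 in replicate 1 and between -0.28 and -0.10 in the other 5. The ages therefore overlapped, with 1 array of each age lying among those of the other. Over the 6 mice the mean was 0.12 ± 0.27 (SD, n = 6) at 6 months and -0.12 ± 0.26 (SD, n = 6) at 20 months.

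The same arrays led for nearly every subunit. The 20 months replicate 1 was the highest of its age for 74 of the 74 subunit genes, 6 months replicate 6 the highest of its age for 66, and 6 months replicate 5 the lowest for 69. Without 20 months replicate 1, 85 of the 88 tested changes were negative with a median of -0.32, and 62 members were lower at an unadjusted p under 0.05, beside 6.71% of all genes in the same fit. No member was called then either. Leaving out 6 months replicate 5 gave a median of -0.30 with 44 members lower at an unadjusted p under 0.05 (4.72% of all genes), and leaving out 6 months replicate 6 gave -0.16 with 1 (4.61%).

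**Figure D3:**
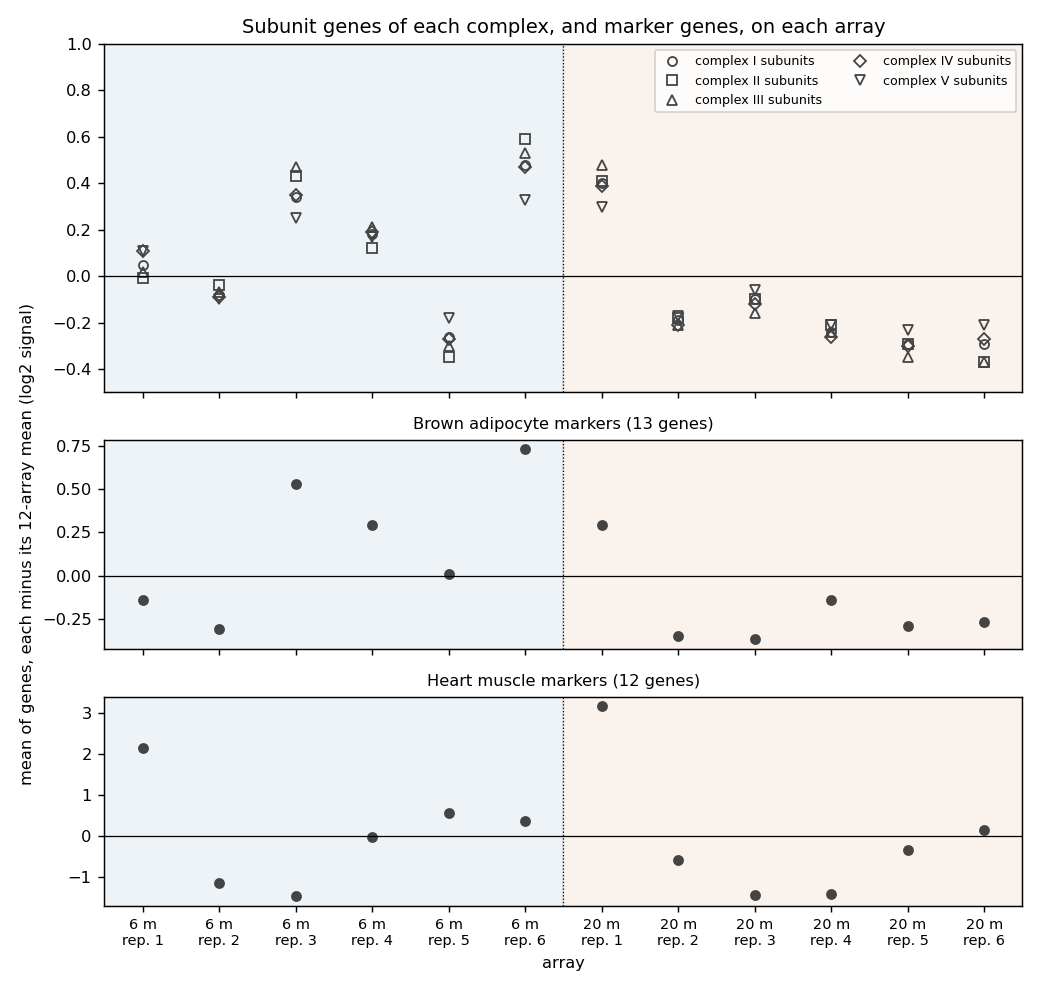
Mean of the subunit genes of each complex on each array (top), and of the brown adipocyte and heart muscle markers (below), each gene centred on its 12-array mean (log2 signal). The 5 complexes run closely alike over the arrays, 20 months replicate 1 stands with 6 months replicates 3 and 6 at the top, and its heart muscle markers reach 3.16.

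The difference between the ages was uneven over the slides. Slide 3 was scanned on another day than slides 1 and 2, so that this slide and its scan day cannot be told apart. Within slide 1, which holds 20 months replicate 1, the median over the members was -0.03 with 57 of 88 negative, within slide 2 it was -0.21 with 79, and within slide 3 it was -0.43 with 86. For complex III, the medians were -0.06, -0.29 and -0.55, and for complex V they were -0.04, -0.20 and -0.36. Of the 74 subunit genes, 46 were negative within all 3 slides. The subunit genes moved together from array to array, so these do not count separately. The share over all genes was not counted. With 2 arrays of each age per slide, a single mouse moves such a value, and whether the slides differ was not tested.

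Markers of some other cell types moved with the subunit genes. The 13 brown adipocyte markers include Cox7a1 and Cox8b, which are complex IV genes, as well as Ucp1 and Ppargc1a. Their mean ranged from -0.31 to 0.73 at 6 months and from -0.37 to 0.29 at 20 months, and the difference of its means was -0.37. All 13 had negative changes and 0 were called. Across the 12 arrays this mean correlated with the mean of the subunit genes with r = 0.866 (Spearman's rho = 0.608). Within the ages r was 0.831, and without the 2 arrays farthest from the median of the markers, 6 months replicates 3 and 6, it was 0.734. With the brown marker mean as a covariate, the median change over the members was 0.00 and 45 of 88 were negative. The complex medians then lay between -0.02 and 0.08, with Ndufab1 at -0.16 and Cox6c at -0.13. Without Cox7a1 and Cox8b among the markers, an alternative chosen after seeing the data, r was 0.821 (0.772 within the ages and 0.631 without the same 2 arrays). As a covariate, the mean of these 11 markers left a median of -0.02 over the members, with 53 of 88 negative. The part of fat tissue in the changes of the members was not tested. These fits cannot decide it, because marker mean and subunit genes come from the same arrays and move together on them.

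The 9 white adipocyte markers had r = 0.854 with the subunit mean (0.763 without 20 months replicate 1 and 6 months replicate 3). Their difference between the ages was -0.13, with array means from -0.27 to 0.38 at 6 months and from -0.36 to 0.43 at 20 months. The 7 smooth muscle markers ran the other way, with r = -0.821 (Spearman's rho = -0.622) and a difference of 0.07. Without 6 months replicates 6 and 3 their r was -0.629. Their lowest means were those of 6 months replicates 6 and 3 and 20 months replicate 1. The 12 heart muscle markers had r = 0.367, which was 0.00622 without 20 months replicate 1 and 6 months replicate 1. The heart markers of 6 months replicates 3 and 6, where the subunits were high, stood at -1.46 and 0.36. The 5 mesothelial markers, whose difference was -2.06, had r = 0.192. The 3 tested Schwann cell markers had r = 0.808 (Spearman's rho = 0.93) and the 6 endothelial markers r = 0.676. Without the 2 arrays farthest from the median of each list, these were 0.856 and 0.473. For fibroblast, macrophage, T and NK cell and skeletal muscle markers r was -0.0969, -0.0706, 0.0958 and 0.208. In the same order, r without the 2 arrays farthest from the median of each list was -0.0422, -0.00979, -0.272 and -0.136. Within 6 months alone r was 0.106, 0.0697, -0.0102 and -0.444, and within 20 months alone -0.521, 0.841, 0.501 and 0.58.

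**Figure D4:**
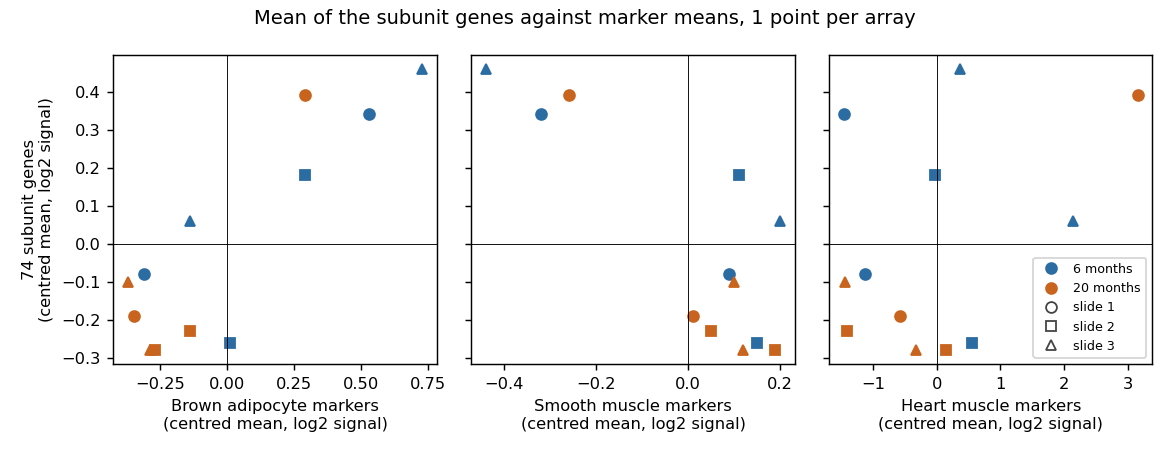
Mean of the 74 subunit genes (vertical axis) against the means of the brown adipocyte, smooth muscle and heart muscle markers (horizontal axes), each gene centred on its 12-array mean (log2 signal), 1 point per array with colour for age and shape for slide. Subunits are high where brown adipocyte markers are high (r = 0.866, or 0.734 without 6 months replicates 3 and 6). They are also high where smooth muscle markers are low (r = -0.821, or -0.629 without the same 2 arrays). The 20 months replicate 1 lies alone at the right of the heart muscle panel.

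Of the genes of the brown adipocyte list, Cox7a1, the muscle and brown fat form of its subunit, had a change of -0.44 ± 0.23 (limma, adjusted p = 0.68), with 7.21 to 8.37 at 6 months and 7.06 to 8.34 at 20 months. Cox8b had -0.33 ± 0.19 (limma, adjusted p = 0.699). Ucp1, the uncoupling protein of brown fat, had -0.64 ± 0.31 (limma, adjusted p = 0.658) and reached 8.86 at 6 months and 8.25 at 20 months at most. Ppargc1a, a coactivator of mitochondrial biogenesis, had -0.01 ± 0.35. Atpif1, the inhibitor of the ATP synthase, is not on that list and had a change of 0.05 ± 0.08.

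Other mitochondrial genes shared the side of the subunits, and none of the lists that follow held a called gene. Changes were negative for 13 of 13 genes of the TCA cycle (median -0.21), with the smallest p in Sucla2 (-0.33 ± 0.16). A list of pyruvate dehydrogenase complex genes, with the pyruvate carrier genes Mpc1 and Mpc2 added, was negative in 6 of 6 (median -0.28). The smallest p in that list was that of Pdhb (-0.60 ± 0.31). Of the mitochondrial ribosomal protein genes, 77 of 79 were negative (median -0.17), with the smallest p in Mrpl47 (-0.37 ± 0.14). Changes were also negative for 24 of 26 further assembly factors (median -0.17; Tmem70, which helps assemble the ATP synthase, -0.32 ± 0.14). A list of electron carriers and inner membrane carriers, with the Vdac channels and Atpif1 added, was negative in 9 of 13 (median -0.12). In the carrier list, Ucp2 had the smallest p with 0.32 ± 0.13, and cytochrome c, Cycs, had -0.34 ± 0.21. Regulators of mitochondrial biogenesis were negative in 13 of 15 (median -0.13), with the smallest p in the receptor Esrrb at 0.53 ± 0.21. Genes of glycolysis, which lies outside mitochondria, were negative in 13 of 15 (median -0.18; Ldha, -0.30 ± 0.21). Their mean had r = 0.965 with the subunit mean over the 12 arrays, near the 0.99 of the mitochondrial ribosomal proteins and the 0.934 of the TCA cycle.

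The subunits encoded by mitochondrial DNA were nearer to the median of all genes. All 12 on the array had negative changes, from -0.17 to -0.05 with a median of -0.08, beside -0.24 for the nuclear subunits, and the difference between these medians was not tested. COX3, with the smallest p, had -0.12 ± 0.08 (limma, adjusted p = 0.746). The array places the probes of COX2, COX3, ND3, ND4L and ATP8 at a near-identical copy on chromosome 1 (mm9), so these may read more than 1 origin. Their mean had r = 0.881 with the nuclear subunits across the 12 arrays.

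Among the 16765 tested genes outside the members, those most like the subunit mean over the 12 arrays were the unnamed models 1700028B04Rik (r = 0.993), Gm6415 (0.992), Gm2736 (0.991) and Gm15393 (0.99), then Cox6c2 (0.988), Mcrip2 (0.987), Cycs (0.987) and Chchd10 (0.987). The changes of these 8 lay between -0.37 and -0.22. Genes outside the members are given by current symbols. Cox6c2 had another name on the array, so the rule did not take it, and whether its probe also reads Cox6c was not checked. Cycs carries electrons between complexes III and IV, and Chchd10 is a small protein of the space between the mitochondrial membranes. Models numbered Gm are often processed copies of expressed genes, so their probes may read RNA of another gene.

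The median of the members was negative under other background corrections and scalings. It was -0.23 with normexp background correction, -0.20 with median scaling, and -0.15 with quantile normalization or with the authors' value table.

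**Figure D5:**
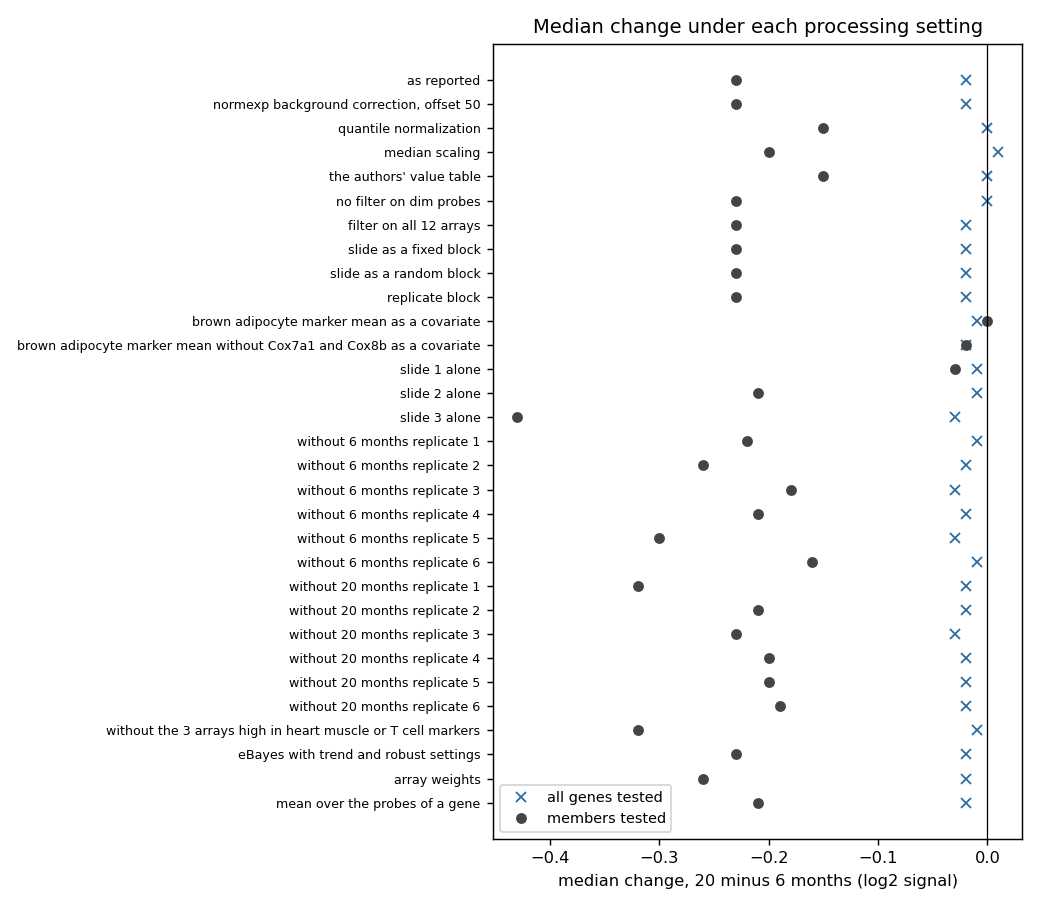
Median change of the tested members (circles) and of all genes tested (crosses) from 6 to 20 months (log2 signal, horizontal axis) under each processing setting, the reported one on top. The members' median runs from -0.43 (slide 3 alone) to 0.00 (brown adipocyte marker mean as a covariate), and that of all genes stays between -0.03 and 0.01.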

How the data were processed

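RNA of 12 aortas was hybridised to 12 Agilent 1-colour arrays. Per the file headers, the scanned images were quantified with Feature Extraction 10.7.1.1 (protocol GE1_107_Sep09, design 028005, probe positions on mm9). The deposited intensity is the processed green signal, background-subtracted and unscaled. A deposited table of log2 values, whose steps are not given in the sources used here, correlated with the scanner values at 0.898 to 0.985 per array across probes (column medians -0.0346 to 0.012) and was an alternative.

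Log2 intensities, without outlier-flagged and control spots, were averaged per probe and set against the array's 75th percentile over gene probes. A probe entered if well above background on at least 6 arrays, and the brightest probe stood for a gene. Ages were compared with limma 3.58.1 (R 4.3.3, data.table version 1.17.8), Benjamini-Hochberg over all genes, threshold 0.05, 2-sided. The fit was tested on simulated data.

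Named are, per complex, the 2 subunits with the smallest p, 3 assembly factors, the 6 most positive and 4 most negative members, 28 genes always given, and the gene with the smallest p of each further list, 37 members in all. Members and lists were chosen with earlier results of these data known. Mitochondrially encoded genes were found by the array's names. Further marker lists, with the difference of their means between ages, were skeletal muscle (-0.10), endothelium (-0.06), fibroblast (0.05), macrophage (0.33), T and NK cell (-0.03) and Schwann cell (-0.22). Alternatives were normexp (offset 50), quantile and median scaling, the value table, filters, slide and replicate blocks, slides alone, weights, probe rules, brown marker covariates and arrays left out. The 12 arrays limit precision.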

Additional observations from a re-analysis of the deposited data

Results flagged for a closer look

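In 26 of 92 sets of 6 arrays of 1 age, 1 array stood apart by Dixon's criterion, and in 25 of them it was 20 months replicate 1, above the other 5. Chance gives about 1 in 20 such sets, and the sets share their arrays, so they do not count separately. The centred mean of all members was 0.41 there, that of complex I 0.40, complex II 0.41, complex III 0.48, complex IV 0.39, complex V 0.30 and the assembly factors 0.24. The next highest 20 months array lay at -0.12 for all members. Among marker lists the brown adipocyte mean was 0.29 and the heart muscle mean 3.16.

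Of the members named, 16 were set apart on this array. In complexes I and II these were Ndufab1 (signal 2.36), Ndufc2 (6.30), Ndufb8 (8.13), Sdhd (6.83) and Sdhb (8.13). In complexes III and IV they were Uqcr11 (7.82), Cox6c (7.66), Ndufa4 (6.95), Cox4i1 (8.59), Cox5a (8.57), Cox5b (6.96), Cox7a2 (6.28) and Cox8a (9.12). In the ATP synthase they were Atp5g2 (7.31) and Atp5e (8.01), and among the assembly factors Ndufaf3 (2.52). The remaining set was Cox4nb at 20 months, where replicate 6 was lowest at 2.22. The cause was not tested.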

How the results depend on the processing

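No member was called under any of the 32 settings, which include testing every probe. The median over the members was -0.23 as reported and ran from -0.32 (without 20 months replicate 1) to -0.16 (without 6 months replicate 6) when single arrays were left out, and over all settings from -0.43 (slide 3 alone) to 0.00 (brown marker covariate). Signs of single named members changed 61 times, 17 of them with that covariate and 14 with it lacking Cox7a1 and Cox8b, and none was called either way; the cause was not tested. With the replicate number as a block, 6 genes were called in all in place of 53, 0 of them members, and the median was -0.23. The numbers do not pair the samples: deviations of same-numbered mice correlated between -0.36 and 0.323, and 1 of 6 numbers matched best with itself. Array weights called 122 genes in all, 0 of them members. Columns and ages cannot be told apart, and the count of 6 arrays per age limits what could be called.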
